A study of Mus musculus with 6 samples.

Results

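The cyclins and cell cycle cyclin-dependent kinases (CDKs) described here are the D-type cyclin genes Ccnd1, Ccnd2 and Ccnd3, the E-type cyclin genes Ccne1 and Ccne2, the A-type cyclin gene Ccna2, the B-type cyclin genes Ccnb1 and Ccnb2, and the kinase genes Cdk1 and Cdk2. They were chosen by gene symbol and not by their values, though with earlier results of these data known. All 10 were among the 16894 genes with values. The data are bulk mRNA sequencing of fibroadipogenic progenitors (FAPs), mesenchymal cells of skeletal muscle, taken from C57BL/6 mice of both sexes aged 3 to 6 months. Cells negative for CD45, CD31 and integrin alpha 7 and positive for SCA-1 were sorted magnetically and grown in medium with 20% serum and 10 ng/mL bFGF at 3% oxygen. The control group holds 3 libraries of non-senescent FAPs. The senescent group holds 3 libraries of FAPs given 20 μM etoposide, a topoisomerase inhibitor that leaves breaks in DNA, over 48 hours and then returned to normal medium for 5 days. The senescent libraries come from whole treated cultures and not from cells sorted for senescence. How long the control cultures were kept, how dense they were, and whether replicates came from separate mice or cultures are not given in the sources used here, so p-values measure the spread between these libraries, which may be technical.

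Cyclins are regulatory subunits that switch on CDKs, and the cyclin present at each stage of the cycle sets which kinase is active. D-type cyclins pair with CDK4 and CDK6 and respond to growth factors, E-type cyclins pair with CDK2 at entry into DNA synthesis, cyclin A serves CDK2 and then CDK1, and cyclin B with CDK1 drives mitosis. D-type and E-type kinases phosphorylate the retinoblastoma protein, which frees E2F factors, whereas many genes of mitosis are transcribed late in the cycle through MuvB complexes, B-Myb and FoxM1 at CHR elements, often beside CCAAT boxes bound by NF-Y.

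The start-site windows of the mitotic genes are shown because their sequences share letters that the choice of genes did not use. Each window holds 250 bases before and 30 bases after an annotated start, from RefSeq on GRCm38.p6, and is written 5′ to 3′ on the gene's own strand. Capitals mark matches, on either strand and without overlap in these windows, to the letters of 3 motifs. The E2F letters searched were TTTCGCGC, TTTGGCGC, TTTCCCGC or TTTGCCGC. For the CHR, the cell cycle homology region, the letters TTTGAA were searched. A variant counted in the same way was TTTAAA. The third was CCAAT, which on the opposite strand reads in the window as ATTGG. The first windows below belong to Ccnb1 (chr13:100786457-100786736, minus strand), Ccnb2 (chr9:70421525-70421804, minus strand) and Cdk1 (chr10:69352883-69353162, minus strand).
Ccnb1: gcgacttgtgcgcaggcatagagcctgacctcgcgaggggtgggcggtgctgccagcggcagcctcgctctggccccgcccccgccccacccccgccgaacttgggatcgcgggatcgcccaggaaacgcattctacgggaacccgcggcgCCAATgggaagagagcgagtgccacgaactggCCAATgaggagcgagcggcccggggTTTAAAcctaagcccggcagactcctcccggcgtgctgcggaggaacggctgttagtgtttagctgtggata
Ccnb2: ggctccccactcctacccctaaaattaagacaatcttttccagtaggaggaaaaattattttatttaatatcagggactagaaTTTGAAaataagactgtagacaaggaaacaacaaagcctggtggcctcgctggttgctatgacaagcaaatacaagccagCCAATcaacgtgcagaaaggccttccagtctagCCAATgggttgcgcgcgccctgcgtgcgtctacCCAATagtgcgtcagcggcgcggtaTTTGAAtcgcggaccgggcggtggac
Cdk1: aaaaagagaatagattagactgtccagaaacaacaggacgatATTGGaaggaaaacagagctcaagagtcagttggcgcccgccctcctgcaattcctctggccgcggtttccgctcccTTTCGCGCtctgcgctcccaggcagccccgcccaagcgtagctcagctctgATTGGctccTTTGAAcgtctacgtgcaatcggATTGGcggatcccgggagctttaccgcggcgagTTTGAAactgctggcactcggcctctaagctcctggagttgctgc
The Ccnb1 window held 2 CCAAT boxes, at 99 and 67 bases before the start, and 1 CHR match. The Ccnb2 window held 3 CCAAT boxes and 2 CHR matches. In Cdk1 there were 3 CCAAT boxes, 2 CHR matches and 1 E2F match. Of all 32841 windows, 36.1% held a CCAAT, 11.1% held 2 or more, 26.7% held a CHR match, 10.03% held both a CHR match and a CCAAT, and 2.12% held an E2F match.

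In each of these windows, a pair of CCAAT boxes in the same orientation lay 32 bases apart (Ccnb1 and Cdk1) or 33 bases apart (Ccnb2, where 3 boxes formed 2 such steps). A pair spaced 31 to 34 bases apart occurred in 0.874% of all windows, and in 0.186% together with a CHR match. That spacing range was chosen after these sequences had been seen, so the shares are descriptive. A match of letters does not show that a factor binds there.

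The windows of Cdk2 (chr10:128705022-128705301, minus strand), Ccne1 (chr7:38107461-38107740, minus strand) and Ccnd3 (chr17:47504801-47505080 and chr17:47593217-47593496, plus strand) are given for contrast with those of the mitotic genes.
Cdk2: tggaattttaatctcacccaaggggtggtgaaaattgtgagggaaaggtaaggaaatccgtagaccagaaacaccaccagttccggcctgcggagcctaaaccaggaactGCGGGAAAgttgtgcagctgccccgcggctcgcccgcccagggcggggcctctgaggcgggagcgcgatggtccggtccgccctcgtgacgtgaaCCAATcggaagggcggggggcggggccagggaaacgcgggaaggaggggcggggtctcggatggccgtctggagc
Ccne1: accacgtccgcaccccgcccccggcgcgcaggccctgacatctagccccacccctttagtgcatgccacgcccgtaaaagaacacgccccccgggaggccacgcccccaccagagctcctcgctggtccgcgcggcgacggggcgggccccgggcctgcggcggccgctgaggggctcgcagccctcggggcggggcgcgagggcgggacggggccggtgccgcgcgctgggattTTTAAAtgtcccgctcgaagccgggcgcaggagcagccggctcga
Ccnd3, upstream start: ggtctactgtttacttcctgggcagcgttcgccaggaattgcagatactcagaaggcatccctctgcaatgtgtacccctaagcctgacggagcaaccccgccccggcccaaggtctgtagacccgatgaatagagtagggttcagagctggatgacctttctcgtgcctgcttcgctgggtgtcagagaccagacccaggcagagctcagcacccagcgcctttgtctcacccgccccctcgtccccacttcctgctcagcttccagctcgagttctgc
Ccnd3, downstream start: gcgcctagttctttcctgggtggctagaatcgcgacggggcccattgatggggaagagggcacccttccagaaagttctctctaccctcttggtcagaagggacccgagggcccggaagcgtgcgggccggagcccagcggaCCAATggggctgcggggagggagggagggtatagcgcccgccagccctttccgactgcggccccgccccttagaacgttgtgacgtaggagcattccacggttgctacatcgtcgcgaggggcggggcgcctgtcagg
The Cdk2 window held 1 E2F match and 1 CCAAT, with no CHR match. The Ccne1 window held 1 CHR match alone. Neither Ccnd3 window held a CHR or E2F match, and only the downstream one held a CCAAT. Windows were at hand for 6 of the 10 genes, and those of Ccnd1, Ccnd2, Ccne2 and Ccna2 are not shown.

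**Figure D1:**
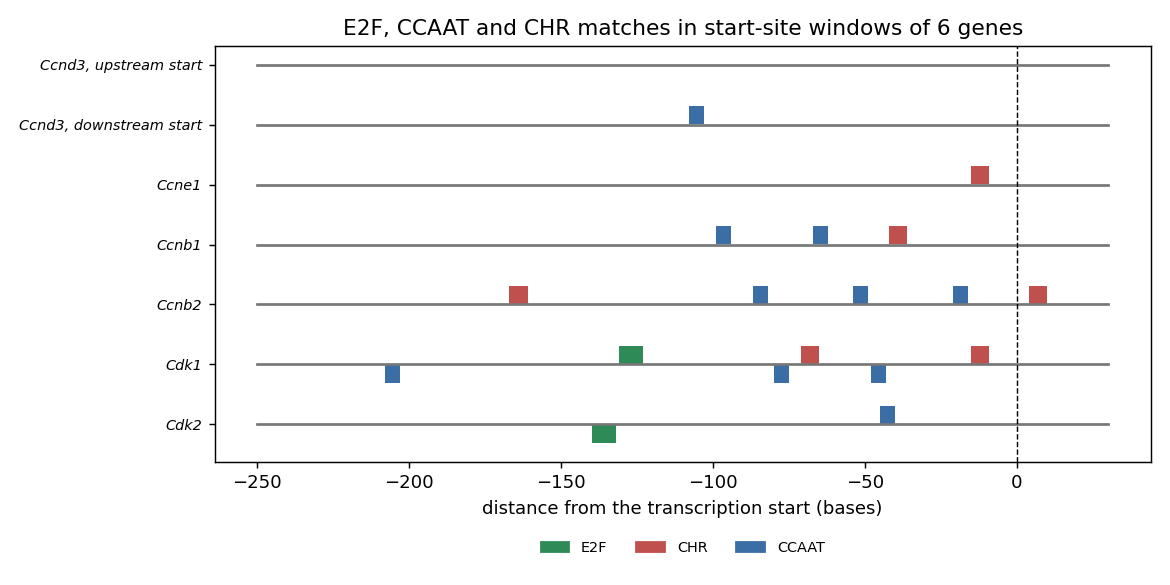
Matches to the E2F, CHR and CCAAT letters in 7 start-site windows of 6 genes, plotted by distance in bases from the annotated start (0 on the horizontal axis), with 1 row per window, 1 colour per motif, and blocks above the line for the gene's strand and below it for the opposite strand. CCAAT pairs 32 or 33 bases apart appear in the rows of Ccnb1, Ccnb2 and Cdk1.

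Each library had 41412179 to 59912520 reads on genes, and values are CPM, read counts scaled by the authors to a common effective library size. Control replicate 2 stood apart from the other controls on the second principal component (-87.0 against 61.5 and 7.35). Some results for the 10 genes are therefore also given without it, and levels and changes of other genes only with it. All 10 FAP markers, Pdgfra and Ly6a among them, had values. Their summed level, mostly Col1a1 and Col3a1, was 16967 to 35599 CPM in controls and 10002 to 14281 CPM in senescent libraries. Mean Col1a1 was 15545 CPM in controls and 3116 CPM in senescent libraries, and mean Col3a1 10041 and 6471 CPM. Of the 10, 5 (Ly6a, Cd34, Dcn, Lum and Cd55) were higher, 1 (Col1a1) was lower and 4 were not called. Among all genes tested, 21.8% were higher and 24.3% lower at the threshold given below. Summed leukocyte markers were 11.3 to 14.1 CPM in controls and 27.0 to 33.1 CPM in senescent libraries (4 of 5 tested were higher), with Ptprc, Adgre1 and Tyrobp not listed in the table. Satellite cell and myogenic markers summed to 15.2 to 19.5 and 24.3 to 31.3 CPM, with Pax7, Myf5, Myod1, Myog and Cdh15 not listed. Of 3 tested, 1 (Itga7, for integrin alpha 7, log2 fold change 0.83) was higher and 2 were not called. Endothelial markers summed to 19.2 to 39.5 and 23.8 to 31.2 CPM, with Tie1, Emcn and Cldn5 not listed. Of 4 tested, 2 (Pecam1 and Vwf) were higher and 1 (Kdr) lower. Pericyte and smooth muscle markers summed to 309.8 to 412 and 258 to 281 CPM, mostly Cspg4. Of 6 tested, 2 (Rgs5 and Notch3) were higher and 2 (Cspg4 and Mcam) lower. The part of these other markers in the results below was not tested.

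Senescent FAPs had less mRNA of the E-type, A-type and B-type cyclins and of Cdk1 and Cdk2, and more of the D-type cyclins Ccnd1 and Ccnd3. Of the 10 genes, 7 were lower and 2 were higher at an adjusted p under 0.05 (limma on log2(CPM + 0.5), Benjamini-Hochberg over 14776 genes), and Ccnd2 was not called. Of all genes tested, 24.3% were lower and 21.8% higher, 46.1% in all. At an unadjusted p under 0.01 with a log2 fold change beyond 1, 6 of the 10 were lower and 1 was higher, against 3.9% and 6.93% of all genes. The lowest and highest library of the groups did not overlap for 9 of the 10 genes, all but Ccnd2, against 57.4% of all genes. Median log2 fold changes, senescent over control, were 0.35 for the 3 D-type cyclins, -1.66 for the 2 E-type cyclins, -3.35 for the 3 A-type and B-type cyclins and -1.87 for the 2 kinases, and -0.03 over all genes. In bulk RNA, fewer cells in a given stage of the cycle and less of an mRNA per cell cannot be told apart.

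**Figure D2:**
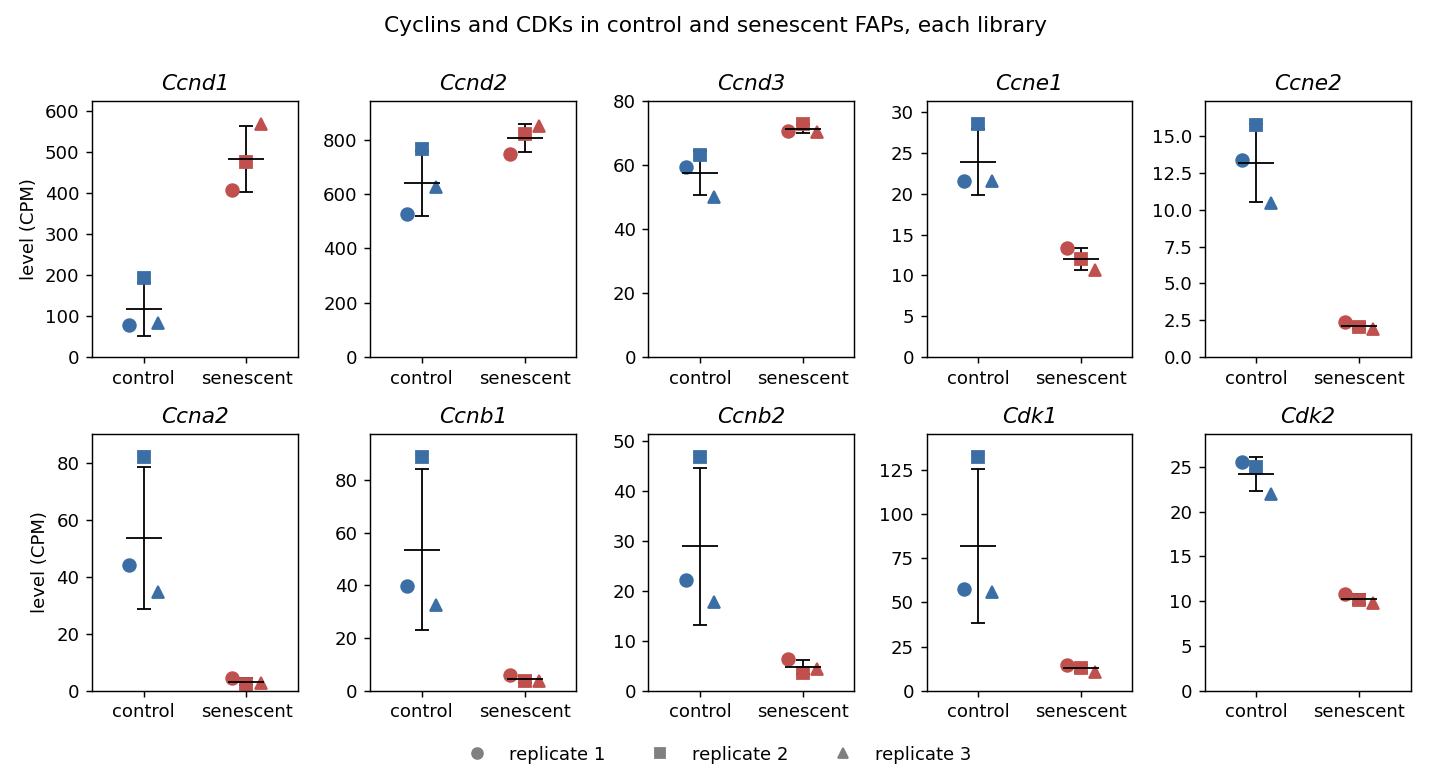
Level in CPM (vertical axis of each panel, from 0) of the 10 genes in each library of the control (blue) and senescent (red) groups, with marker shape for replicate number, a horizontal line for the mean and bars for the SD of 3 libraries. Control and senescent libraries overlap only in the Ccnd2 panel, and control replicate 2 is the highest control in every panel except that of Cdk2.

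D-type cyclins, which carry growth factor signals to CDK4 and CDK6, were the members that did not fall. Ccnd1 (chromosome 7, 144929931 to 144939925 on GRCm38, minus strand) encodes cyclin D1. Its level in replicates 1, 2 and 3 was 78.0, 193 and 82.6 CPM for the controls, followed by 409, 476 and 570 CPM for the senescent libraries. Every senescent library lay above every control, and control replicate 2 had more than its fellow controls. The mean rose 4.12-fold, from 118 ± 64.8 to 485 ± 80.7 CPM (SD, n = 3), a log2 fold change of 2.15 (SE 0.33, limma adjusted p = 0.00180) that ranked 140 among 14776 genes by size of rise. Without control replicate 2 the log2 fold change was 2.57. Within equal replicate numbers it was 2.38, 1.30 and 2.78.

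Ccnd2 (chromosome 6, 127125162 to 127152193, minus strand) encodes cyclin D2 and was the most abundant cyclin mRNA per kb in the controls. Its level was 526, 767 and 625 CPM in the controls and 748, 820 and 850 CPM in the senescent libraries. The groups overlapped, since control replicate 2 was above senescent replicate 1. The means were 639 ± 121 and 806 ± 52.1 CPM (SD, n = 3), and the difference of 0.35 on the log2 scale (SE 0.14) did not pass the limma test (adjusted p = 0.0790). With the replicate number as a block it did (SE 0.11, adjusted p = 0.0309), and so it did without control replicate 2 (0.49, adjusted p = 0.00758). Without control replicate 1 the difference was smaller (0.22, adjusted p = 0.212). The test was also passed under DESeq2 (adjusted p = 0.0363) and, as given at the end, under 3 other alternatives.

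Ccnd3 (chromosome 17, 47505051 to 47599691, plus strand) encodes cyclin D3. Its level was 59.4, 63.3 and 50.05 CPM in the controls and 70.8, 73.0 and 70.4 CPM in the senescent libraries. All senescent libraries were higher, in a narrow band, and control replicate 3 was the lowest library. The means were 57.6 ± 6.83 and 71.4 ± 1.40 CPM (SD, n = 3), a rise of 0.31 on the log2 scale (SE 0.10, limma adjusted p = 0.0309). The call was lost without control replicate 3 (adjusted p = 0.0873) and without senescent replicate 1, 2 or 3 (adjusted p = 0.0643, 0.103 and 0.0754), with log2 fold changes of 0.22 to 0.39 over all libraries left out in turn. Its 3′ end overlaps Bysl on the opposite strand, a gene that was lower in senescent libraries (-0.59, limma adjusted p = 0.00206).

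E-type cyclins, the partners of CDK2 at the start of DNA synthesis, both fell but by unequal amounts. Ccne1 (chromosome 7, 38097984 to 38107534, minus strand), for cyclin E1, was at 21.6, 28.5 and 21.5 CPM in the controls and 13.4, 12.0 and 10.6 CPM in the senescent libraries. The groups were apart, with the mean 1.99-fold lower in the senescent group (23.9 ± 4.03 and 12.0 ± 1.37 CPM, SD, n = 3). The log2 fold change was -0.96 (SE 0.14, limma adjusted p = 0.00181), the smallest among the 7 genes that fell.

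Ccne2 (chromosome 4, 11191351 to 11204779, plus strand), for cyclin E2, was at 13.4, 15.7 and 10.4 CPM in the controls and 2.38, 2.04 and 1.94 CPM in the senescent libraries. No senescent library came near the lowest control. The mean was 6.22-fold lower (13.2 ± 2.65 and 2.12 ± 0.234 CPM, SD, n = 3), with a log2 fold change of -2.37 (SE 0.18, limma adjusted p = 1.69e-04) and rank 88 among all falls. The lowest library still held 86 reads of this gene.

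A-type and B-type cyclins, which serve the kinases of DNA synthesis, G2 and mitosis, all fell, and Ccna2 and Ccnb1 had the deepest falls of the 10 genes. Ccna2 (chromosome 3, 36564865 to 36572150, minus strand) encodes cyclin A2, the cyclin A of somatic cells. Its level was 44.3, 82.1 and 34.8 CPM in the controls and 4.47, 2.34 and 2.63 CPM in the senescent libraries. The lowest control lay far above the highest senescent library, which was senescent replicate 1. The mean was 17.1-fold lower (53.7 ± 25.0 and 3.15 ± 1.15 CPM, SD, n = 3). The log2 fold change of -3.84 (SE 0.33, limma adjusted p = 2.69e-04) was the largest fall of the 14776 genes tested. The libraries held 117 to 4319 reads of Ccna2, and without control replicate 2 the log2 fold change was -3.49.

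Ccnb1 (chromosome 13, 100778650 to 100786570, minus strand) encodes cyclin B1, the main partner of CDK1 at entry into mitosis. Its level was 39.6, 88.6 and 32.5 CPM in the controls and 5.94, 3.61 and 3.69 CPM in the senescent libraries. As for Ccna2, control replicate 2 was the highest library and senescent replicate 1 the highest of its group. The mean was 12.1-fold lower (53.5 ± 30.5 and 4.41 ± 1.32 CPM, SD, n = 3), with a log2 fold change of -3.35 (SE 0.36, limma adjusted p = 5.04e-04) and rank 7 among falls.

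Ccnb2 (chromosome 9, 70407692 to 70421547, minus strand) encodes cyclin B2, a second mitotic partner of CDK1. Its level was 22.2, 46.7 and 17.6 CPM in the controls and 6.25, 3.63 and 4.39 CPM in the senescent libraries. The groups were again apart, with the mean 6.06-fold lower (28.8 ± 15.6 and 4.76 ± 1.35 CPM, SD, n = 3). The log2 fold change was -2.38 (SE 0.35, limma adjusted p = 0.00161).

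The kinase genes fell with the cyclins they serve, and Cdk1 fell further than Cdk2. Cdk1 (chromosome 10, 69335146 to 69352938, minus strand) encodes the kinase of mitosis. Its level was 57.8, 132 and 56.0 CPM in the controls and 14.6, 12.8 and 10.5 CPM in the senescent libraries. The groups were apart and the mean was 6.48-fold lower (82.0 ± 43.4 and 12.7 ± 2.08 CPM, SD, n = 3), a log2 fold change of -2.54 (SE 0.32, limma adjusted p = 8.36e-04).

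Cdk2 (chromosome 10, 128697939 to 128705031, minus strand) encodes the kinase of cyclins E and A. It was at 25.5, 25.0 and 21.99 CPM in the controls and 10.8, 10.1 and 9.74 CPM in the senescent libraries. These were the tightest controls of the 10 genes, with a coefficient of variation of 7.89% against 53.0% to 57.0% for Ccnd1, Ccnb1, Ccnb2 and Cdk1 and 46.6% for Ccna2. The mean was 2.36-fold lower (24.2 ± 1.91 and 10.2 ± 0.546 CPM, SD, n = 3), with a log2 fold change of -1.20 (SE 0.10, limma adjusted p = 2.69e-04). The falls within equal replicate numbers were -1.20, -1.26 and -1.13.

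**Figure D3:**
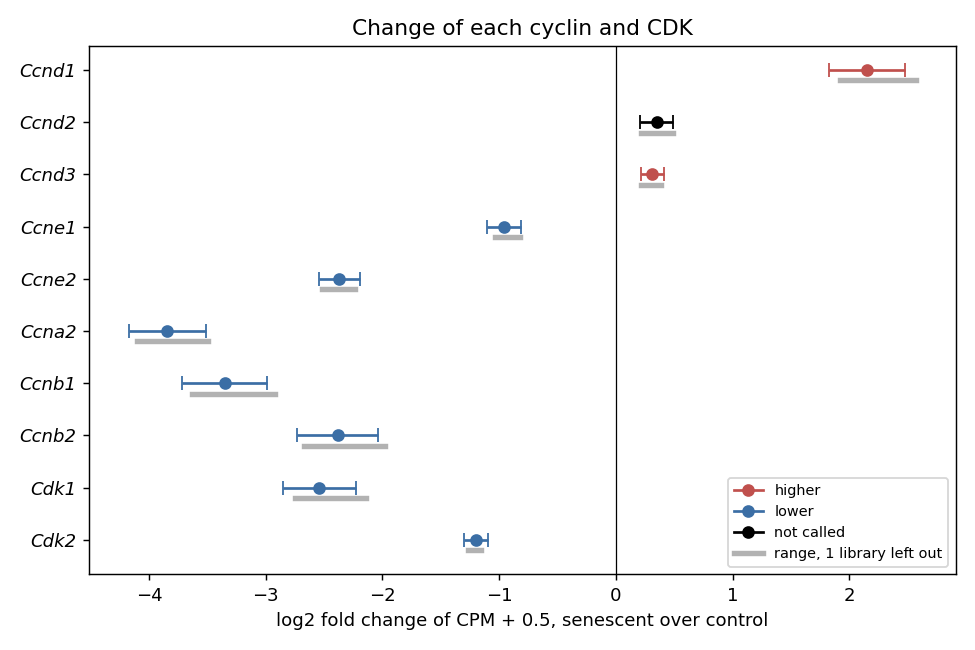
Log2 fold change of CPM + 0.5, senescent over control, for the 10 genes (points coloured by limma call, with bars for the SE of the fit and grey bands for the range with 1 library left out). The D-type cyclins lie above 0, between 0.31 and 2.15, and the other 7 genes lie below it, down to -3.84 for Ccna2.

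Ratios of 2 genes within a library depend on scaling between libraries only through the 0.5 CPM added to each value, and 8 were compared. The test was a two-sided exact permutation test over the libraries, whose smallest possible p is 0.1 for 3 against 3. In 7 of the 8 the groups did not overlap (exact p = 0.1, 0.114 after Benjamini-Hochberg adjustment over the 8). For single genes the groups were apart in 57.4% of all tested, and no such share was computed for ratios. The pairs join members that mostly differed between the groups themselves, so this count is descriptive. The ratio of Ccnd1 to Ccna2 shifted most, by 6.00 on the log2 scale (SE of the difference 0.39), which is 63.9-fold with 0.5 CPM added. This ratio shifted by 6.17 with 0.1 added and by 5.81 with 1 added. Its log2 values were 0.81, 1.22 and 1.24 in the controls and 6.37, 7.39 and 7.51 in the senescent libraries, so the higher Ccnd1 of control replicate 2 did not set its ratio apart.

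Members of one class did not move by equal amounts. Ccnd1 rose against Ccnd2 by 1.80 (SE 0.30) and against Ccnd3 by 1.84 (SE 0.39) on the log2 scale, whereas Ccnd2 to Ccnd3 shifted by 0.04 (SE 0.17, exact permutation p = 1), and by -0.12 without control replicate 1. Ccne2 fell more than Ccne1, which raised the ratio of Ccne1 to Ccne2 by 1.41 (SE 0.10), or by 1.59 and 1.24 with 0.1 and 1 added. Ccnb1 fell more than Ccnb2, with a shift of -0.97 (SE 0.07) from log2 ratios of 0.82 to 0.92 in the controls to -0.22 to -0.01 in the senescent libraries. Cdk1 to Cdk2 shifted by -1.34 (SE 0.39), or by -0.96 without control replicate 2, and Ccne1 to Ccna2 by 2.89 (SE 0.31).

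Per kb of exon, the 8 cyclin mRNAs changed in makeup from mixed to almost wholly D-type. D-type cyclins made up 62.9%, 59.9% and 69.8% of the summed cyclin level per kb in the control libraries, in order of replicate number, and 93.4%, 95.7% and 96.1% in the senescent ones. The mean shares were 64.2% ± 5.08 and 95.1% ± 1.43 (SD, n = 3). A-type and B-type cyclins went from 27.4% ± 5.75 to 2.43% ± 0.948, and E-type cyclins from 8.38% ± 1.24 to 2.51% ± 0.531. The summed level of all 8 was 157 ± 51.5 CPM per kb in the controls and 207 ± 20.8 CPM per kb in the senescent libraries, and these ranges overlapped because control replicate 2 reached 216.

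**Figure D4:**
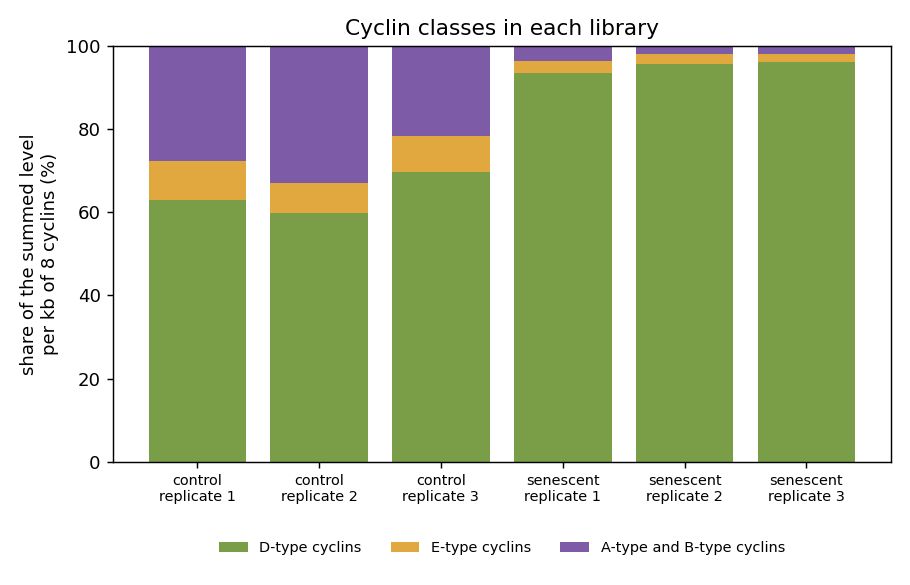
Share, in percent, of the summed level per kb of exon of 8 cyclin genes taken by D-type, E-type, and A-type and B-type cyclins (stacked bars from 0), 1 bar per library. The D-type share is 59.9% to 69.8% in the controls and 93.4% to 96.1% in the senescent libraries.

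In the controls, Ccnd2 had the highest level per kb (67.9 CPM per kb), and its range did not overlap that of Ccnd1 (25.0). The next genes in order, Ccnb2 (18.8), Cdk1 (16.6), Ccna2 (13.2), Ccnb1 (12.7) and Ccne1 (8.97), each overlapped the gene above it in range. Ccnd3 (6.56), Cdk2 (3.89) and Ccne2 (3.77) came last, with only the last pair overlapping. In the senescent libraries Ccnd1 (103 CPM per kb) and Ccnd2 (85.7) came first with overlapping ranges, and Ccnd3 (8.14) and Ccne1 (4.51) followed, each apart from the gene above it. Ccnb2 (3.11), Cdk1 (2.57), Cdk2 (1.65), Ccnb1 (1.05), Ccna2 (0.771) and Ccne2 (0.606) came below, where the ranges of Cdk1 and Cdk2 and those of Cdk2 and Ccnb1 were apart and the other neighbours overlapped. Several places depend on the length used, among them that of Ccnd3, whose exons cover 8775 bases together and whose longest coding transcript has 2113. With the longest coding transcript of each gene, Ccnd3 ranked 3 rather than 8 in the controls, Ccnb1 4 rather than 6 and Ccnb2 5 rather than 3. In the senescent libraries Cdk2 (4.25 CPM per kb) then ranked 5 rather than 7, above Ccnb2 (3.11) and Cdk1 (2.89). The D-type share was 68.9% in controls and 95.8% in senescent libraries with this length.

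Control replicate 2 was the highest control for 9 of the 10 genes, all but Cdk2, against 38.9% of all genes tested. It lay above the mean of the other controls by 1.26 for Ccnd1, 1.06 for Ccna2, 1.29 for Ccnb1, 1.22 for Ccnb2 and 1.21 for Cdk1 on the log2 scale, a gap over 1 that 2.06% of all genes had. For Ccnd2, Ccnd3, Ccne1 and Ccne2 the gap was 0.21 to 0.42, and for Cdk2 it was 0.08. Ccnd1 and the mitotic genes were thus high together in this control, and moved in opposite directions between the groups. Without this library, all 7 lower calls and the higher calls of Ccnd1 and Ccnd3 were kept, with log2 fold changes of -3.49 for Ccna2, -2.92 for Ccnb1, -1.98 for Ccnb2 and -2.14 for Cdk1.

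The genes whose profiles over the 6 libraries were most like each member, by root-mean-square difference of centred log2 values, were Mki67 (0.18), 2810417H13Rik and Top2a for Ccna2. Kif11 (0.12), Top2a and Prc1 were nearest to Ccnb1, and Tpx2 (0.092), Cdc20 and Racgap1 to Ccnb2. For Cdk1 they were Aspm (0.099), Cdca8 and Spag5, and for Cdk2 they were Gm13237 (0.056), Tcof1 and H1fx. Ccne2 lay closest to Mcm3 (0.077), Cdc6 and Aunip, whereas Ccne1 lay closest to Tubb6 (0.057), Lsm6 and Unc5b. The D-type cyclins had other neighbours, Inmt (0.13), Irgm1 and Cd53 for Ccnd1, Prss23 (0.034), Pea15a and Rassf3 for Ccnd2, and Dnase2a (0.031), Cndp2 and Uaca for Ccnd3. Cd53 is also on the leukocyte marker list. Among the 10 genes themselves, Ccnd2 and Ccnd3 were nearest to each other (0.17), as were Ccne1 and Cdk2 (0.18), Ccnb2 and Cdk1 (0.21), and Ccna2 and Ccnb1 (0.26), and Ccnd1 was nearest to Ccnd2 at 0.95.

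Among 88 tested genes that act on or with these cyclins and kinases, in 8 lists, 40 (45.5%) were lower and 12 (13.6%) higher at the same threshold, against 24.3% and 21.8% of all genes, with a median log2 fold change of -0.20 against -0.03 over all genes. With values divided by library totals alone, which shifts the median of all genes to 0.17, 26 were lower and 25 higher. Of 15 other cyclins tested, 3 (20.0%) were higher and 4 (26.7%) lower, shares near those over all genes, and with library totals alone 4 were higher and 2 lower. Ccng1, for cyclin G1, a target of p53, had the largest rise of them (358 ± 71.8 to 969 ± 238 CPM, SD, n = 3, log2 fold change 1.42, limma adjusted p = 0.00179), and Ccnf, for cyclin F, a subunit of a ubiquitin ligase, the largest fall (24.9 ± 9.68 to 3.52 ± 0.586 CPM, -2.60, limma adjusted p = 3.97e-04). Called changes were smallest for Ccnl1 (0.23) and Ccni (-0.30, not called under quantile normalization or library totals alone). Ccna1, Ccnb3, Ccnjl and Cntd1 were not listed in the table.

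Of 21 other CDKs, 4 (19.0%) were higher and 7 (33.3%) lower, against 21.8% and 24.3% of all genes. With library totals alone 9 were higher and 2 lower. The D-type partners moved in opposite directions. Cdk4 fell from 255 ± 14.9 to 144 ± 4.76 CPM (SD, n = 3, log2 fold change -0.82, limma adjusted p = 2.93e-04), the largest fall of the list. Cdk6 rose from 3.54 ± 0.399 to 7.13 ± 0.600 CPM (0.92, limma adjusted p = 0.00196), the largest rise. The smallest called changes were those of Cdk5 (0.34) and Cdk11b (-0.25, not called under quantile normalization or library totals alone).

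CDK inhibitors also moved both ways, with 2 of 7 higher (28.6%) and 3 lower (42.9%), against 21.8% and 24.3% of all genes. Cdkn1a, for p21, which binds cyclin-CDK complexes, rose from 290 ± 40.5 to 1038 ± 21.4 CPM (SD, n = 3, log2 fold change 1.85, limma adjusted p = 1.01e-04). Cdkn1c (p57) rose by 0.66, while Cdkn1b (p27) fell by 1.72, Cdkn2c (p18) by 1.41 and Cdkn2d (p19) by 1.34 on the log2 scale (limma adjusted p 0.00158 to 0.0136). Cdkn2a, whose locus encodes p16 and p19Arf, was at 85.5 ± 38.2 and 90.0 ± 23.2 CPM (0.13, limma adjusted p = 0.765), and Cdkn2b (p15) at 68.4 ± 17.9 and 83.9 ± 16.9 CPM (0.30, limma adjusted p = 0.282).

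Activators of CDKs were lower in 5 of 6 tested (83.3%, against 24.3% of all genes). These falls ran from Cdc25c (-2.55, limma adjusted p = 0.00101), a phosphatase that activates CDK1, to Cdc25a (-0.77, limma adjusted p = 0.00277). Spdya was not listed. Of the 2 inhibitory kinases, Pkmyt1 was lower (-2.37, limma adjusted p = 2.43e-04), and Wee1 did not pass (-0.46, limma adjusted p = 0.0957).

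In the retinoblastoma and E2F list 2 of 12 tested genes (16.7%) were higher and 5 (41.7%) lower, against 21.8% and 24.3% of all genes. With library totals alone 5 were higher and 5 lower. Rb1, for the retinoblastoma protein, rose from 10.8 ± 1.32 to 23.9 ± 3.13 CPM (SD, n = 3, log2 fold change 1.11, limma adjusted p = 8.41e-04), and Rbl2 (p130) rose by 0.81, whereas Rbl1 (p107) fell by 1.48 on the log2 scale. The repressor E2f7 fell by 2.52, E2f8 by 2.41, the dimer partner Tfdp1 by 0.79 and E2f4 by 0.61 (limma adjusted p 2.69e-04 to 0.00230). E2f1 (0.43), E2f3 (-0.20, above 0 with library totals alone), E2f5 (-0.27), E2f6 (0.38) and Tfdp2 (0.28) did not pass, and E2f2 was below the filter.

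The MuvB, B-Myb and FoxM1 list had 5 of 7 genes lower (71.4%, against 24.3% of all genes, median -0.47). After median-of-ratios or quantile scaling 4 were lower, and with library totals alone 2 were lower and 1 higher. Foxm1, for a transcription factor of G2 and mitosis, had the largest fall (53.7 ± 23.7 to 10.3 ± 2.52 CPM, SD, n = 3, log2 fold change -2.27, limma adjusted p = 0.00105), and the MuvB subunit Rbbp4 the smallest called one (-0.38, not called with library totals alone). Of 18 genes that degrade cyclins or control that step, 10 (55.6%) were lower and 1 (5.56%) higher, against 24.3% and 21.8% of all genes. With library totals alone 6 were lower and 4 higher. Ube2c, the ubiquitin-conjugating enzyme of the anaphase-promoting complex, fell by 3.01 on the log2 scale (limma adjusted p = 8.38e-04). Fbxw7, whose product marks cyclin E for destruction, rose by 0.54 (limma adjusted p = 0.0152), and Anapc4 had the smallest called fall (-0.25, not called under quantile normalization or library totals alone).

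**Figure D5:**
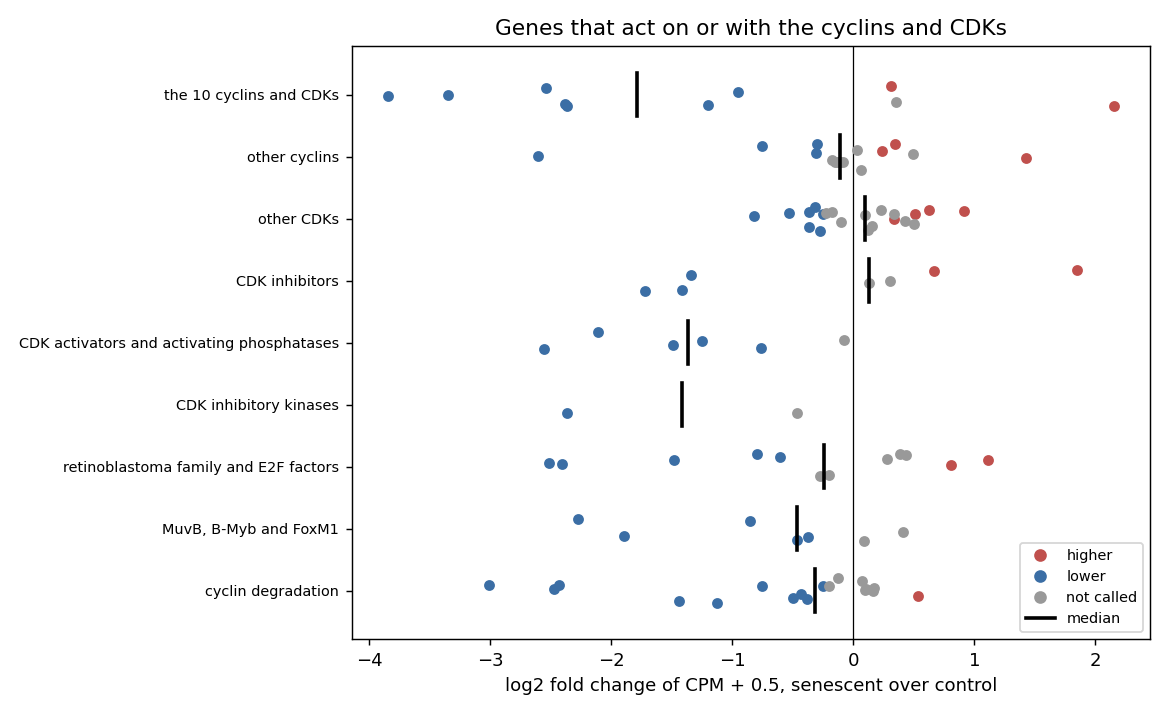
Log2 fold change of CPM + 0.5, senescent over control (horizontal axis), of each tested gene in the 10 cyclins and CDKs and 8 lists of genes around them (rows), coloured by limma call, with a black bar for the median of each list. Lower genes reach -3.01 in the degradation list, and the highest point outside the 10 genes is Cdkn1a at 1.85.

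Some reads could belong to neighbours or copies, which matters because the sources used here do not say whether strand was used in counting. On GENCODE M21, the mRNA of Ccnb1 shared 23.4% of its stretches of 50 bases with other annotated genes, mostly Ccnb1-ps, Gm12856 and Gm8416. Ccnd1 shared 21.6% with LTO1 on the opposite strand, listed as Oraov1, which was far lower in level (17.1 ± 2.01 and 23.6 ± 1.38 CPM, SD, n = 3). Oraov1 was also higher in senescent libraries (0.46 on the log2 scale, limma adjusted p = 0.0134). Ccna2 shared 11.4% with Exosc9 (41.0 ± 2.15 and 48.2 ± 4.02 CPM) and Ccne2 14.4% with Ints8 (34.6 ± 5.30 and 32.5 ± 3.21 CPM), each on the opposite strand and neither called. Ccnd2 shared 6.31%, Ccnd3 5.39% and Cdk2 0.062%, and Ccne1, Ccnb2 and Cdk1 shared 0%.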

How the data were processed

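From FAP RNA, 3 control and 3 senescent libraries were made with a stranded mRNA kit and sequenced by the authors. The deposited values are a signal, CPM of the effective library size, made by the authors with edgeR, 1 column per library and replicates not pooled. Notes of the submitters name mm10, edgeR 3.10 and R 3.6.0. The aligner, counter, annotation, filter and strand setting are not given in the sources used here. CPM had been assumed and the values are scaled CPM, so the same test was kept. Whole reads were recovered for 100% of values (tolerance 0.01 reads). The line that names no gene (0.0041% to 0.0070% of reads) was left out.

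The filter kept 14776 genes that reached 0.5 CPM in 3 or more libraries. These were tested two-sided in R 4.3.3 by limma 3.58.1, on log2(CPM + 0.5) and allowing a variance trend, with Benjamini-Hochberg adjustment over all of them. On the recovered reads, edgeR 4.0.16 (quasi-likelihood) called 3307 genes lower and 3261 higher, and 7 and 2 of the 10 members. Other alternatives were DESeq2 1.42.0, pseudocounts of 0.1 and 1, no filter, a filter of 2 CPM, median-of-ratios, quantile and library-total scaling, array weights, no variance trend, the threshold on p and fold, the replicate block and leaving out each library. Deviations of same-numbered control and senescent libraries from their group means correlated across genes at 0.54, 0.31 and 0.21, all over 0.1. Control replicate 2 and senescent replicate 3 also passed 0.1, at 0.15, and the other unequal pairs were negative. Deviations cancel out within each group, so positive equal pairs make unequal pairs negative on balance. The negative pairs are thus no separate evidence of pairing. Equal numbers were taken to pair the libraries only in the replicate block and in differences within equal numbers. The main calls and the permutation tests left the numbers out.

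The members, the 8 lists and the 5 marker lists were chosen with earlier results of these data known. Named were all members, the 3 genes nearest each member in profile, the largest and smallest called change in each list, and Cdk4, Cdk6, every CDK inhibitor, retinoblastoma and E2F gene. Exon lengths and positions come from GENCODE M21 on GRCm38, start-site windows from RefSeq.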

Additional observations from a re-analysis of the deposited data

How the results depend on the processing

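Of 180 values of the 10 log2 fold changes under alternatives, none reversed and 169 kept both direction and side of the threshold. The other 11 concern 2 genes. Ccnd3 lost its call without the variance trend (adjusted p = 0.0560) and without 4 single libraries, and Ccnd2 gained one under DESeq2, array weights (adjusted p = 0.00253), library totals alone (adjusted p = 0.0175), quantile normalization (adjusted p = 0.0115), the replicate block (0.35, adjusted p = 0.0309) and without control replicate 2. The replicate block changed no other member's call. Members called higher were 1 without the variance trend and 1 under the threshold on p and fold, and 1 to 3 with each library left out, against 6 lower under the threshold on p and fold and 7 in the others. Over all genes, library totals alone gave 1929 lower and 4992 higher, which moved the higher share of calls from 47.3% to 72.1%, and the threshold on p and fold gave 576 and 1024. With 1 library left out, 2416 to 3875 were lower and 2130 to 3405 higher, fewest without senescent replicate 2. In the 8 lists, library totals alone gave 26 lower and 25 higher, the threshold on p and fold 19 and 3, array weights 21 higher, and leaving out 1 library 5 to 13 higher, fewest without senescent replicate 2 (5) or 3 (7). The ratio of Ccnd2 to Ccnd3 reversed without control replicate 1 (-0.12) and without senescent replicate 3 (-0.01), in a range of -0.12 to 0.13. The cause of these shifts was not tested. With 3 libraries a group, no permutation p can pass 0.05, and the calls of Ccnd2 and Ccnd3 depend on which libraries are included.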
